A study of Mus musculus with 16 samples.

Results

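Of the 21482 H3K4me3 peaks called in hair follicle stem cells of proliferating skin, 4901 were under 5000 bp wide and had their middle more than 10000 bp from every annotated transcript start. A total of 1612 of these distal peaks overlapped an H3K4me3 peak of hair follicle stem cells in quiescent skin by at least 1 bp and are described here as kept distal peaks. The members were selected on measured values, namely on the peak calls of the early anagen and the late catagen H3K4me3 lists. The other 3289 distal peaks had no late catagen peak and are called lost distal peaks. Both groups are set beside 11219 peaks of the same width limit that lay within 10000 bp of a start and were found in late catagen as well.

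H3K4me3, trimethylation of lysine 4 of histone H3, marks the nucleosomes around active and poised promoters, and weaker or narrower patches of it also occur at some enhancers and at promoters missing from an annotation. H3K27me3 is the mark of Polycomb repression, and its presence together with H3K4me3 is known as a bivalent state. H3K9me3 is the mark of constitutive heterochromatin. The bulge of the hair follicle holds stem cells that divide in early anagen, the growth phase, and rest in late catagen, the end of the regression phase.

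The study used CD1 x FVB wild-type mice without transgenes, given as male in the sample labels while its methods name both sexes for most of the work, at PD22 to PD25 for early anagen (EA) and at PD38 to PD44 for late catagen (LC), where PD is the postnatal day. Bulge cells were sorted from skin as CD34+ / α6-integrin+ cells (EA-HFSCs and LC-HFSCs), and the CD34- / α6-integrin+ fraction, mostly epidermis and lower outer root sheath, served as non-HFSCs (nEA-HFSCs and nLC-HFSCs). Chromatin of pools of 15 to 20 mice was cut by micrococcal nuclease and precipitated for H3K4me3, H3K27me3, H3K9me3 or with control IgG, which gave 16 samples. For each of the 4 populations and 3 marks, reads of independent experiments were merged before peak calling, so that 12 peak lists with no replicate were analysed, and stage and age cannot be told apart.

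Peak scores are minus 10 times the log10 of the p-value given by the peak caller and rise with both enrichment and read depth, which the lists do not give. The lists differed in size, from 14718 peaks in LC-HFSCs to 24498 in nEA-HFSCs for H3K4me3, while the LC-HFSC lists held 1909 H3K27me3 and 1414 H3K9me3 peaks against 25534 and 42277 in EA-HFSCs. The EA-HFSC H3K9me3 list stood apart, because 42.7% of all EA-HFSC H3K4me3 peaks lay on one of its peaks. The shares of these same EA-HFSC H3K4me3 peaks on the other H3K9me3 lists were 0.735% for nEA-HFSCs, 8.77% for nLC-HFSCs and 0.0605% for LC-HFSCs. Bulge identity was checked by H3K4me3 within 3000 bp of the first annotated base of marker genes. Peaks were present at 9 of 10 bulge genes in both HFSC lists, at 8 in nEA-HFSCs and at 7 in nLC-HFSCs. The promoter of Cd34, a sorting marker, had a peak in both HFSC lists and in neither non-HFSC list. Of 5 basal keratinocyte genes, 3 had a peak in every population. The others of this set, Trp63 and Itga6, which encodes the other sorting marker α6-integrin, had no peak in this window in any population. Starts elsewhere in a gene were not checked, so an absent peak does not show that a gene is unmarked. Peaks were also present in EA-HFSCs at 4 of 6 dermal fibroblast genes, 3 of 5 melanocyte genes, 1 of 4 endothelial genes and 0 of 5 leukocyte genes. All shares of peaks below are given with 95% Wilson intervals, which cover counting error only, and no p-value is given, since peaks are not replicates of a population.

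The kept distal peaks were of several kinds, shown here by mm9 sequence of 7 of the named peaks, each read on the plus strand from 5′ to 3′. In the first group, the capitals mark the 100 bases around a RefSeq transcript start that is absent from the annotation used for the distance rule. They lie in the peaks closest to Fam83b (chr9:76414773-76415072, start on the minus strand), Gm17359 (chr3:79090627-79090926, start of 6430573P05Rik on the plus strand) and Fat3 (chr9:16306349-16306648, start on the minus strand).
Fam83b, RefSeq start: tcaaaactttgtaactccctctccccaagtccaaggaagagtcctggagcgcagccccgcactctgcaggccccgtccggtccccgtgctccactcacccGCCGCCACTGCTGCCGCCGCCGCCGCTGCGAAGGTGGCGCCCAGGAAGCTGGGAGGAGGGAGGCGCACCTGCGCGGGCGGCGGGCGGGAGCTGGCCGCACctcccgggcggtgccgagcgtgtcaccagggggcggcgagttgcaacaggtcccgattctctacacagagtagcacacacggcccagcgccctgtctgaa
Gm17359, RefSeq start of 6430573P05Rik: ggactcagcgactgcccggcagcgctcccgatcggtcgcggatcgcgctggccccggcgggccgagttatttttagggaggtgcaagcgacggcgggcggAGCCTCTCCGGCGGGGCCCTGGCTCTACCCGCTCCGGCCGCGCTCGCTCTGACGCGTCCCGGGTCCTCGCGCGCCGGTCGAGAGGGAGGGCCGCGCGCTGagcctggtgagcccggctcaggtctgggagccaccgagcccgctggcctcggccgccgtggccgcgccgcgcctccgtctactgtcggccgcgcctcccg
Fat3, RefSeq start: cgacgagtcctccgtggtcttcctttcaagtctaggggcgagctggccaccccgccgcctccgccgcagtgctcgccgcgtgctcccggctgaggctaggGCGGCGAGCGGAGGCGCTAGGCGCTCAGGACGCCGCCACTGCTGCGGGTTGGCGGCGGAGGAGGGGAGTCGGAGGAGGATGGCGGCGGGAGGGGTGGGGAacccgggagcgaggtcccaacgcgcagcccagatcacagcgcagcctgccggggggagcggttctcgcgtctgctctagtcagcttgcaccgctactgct

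Next, the capitals mark CpG dinucleotides in a CpG-rich peak 119083 bp from Klf4 (chr4:55664329-55664628). The sequence holds 33 CpGs.
Klf4, CpG-rich: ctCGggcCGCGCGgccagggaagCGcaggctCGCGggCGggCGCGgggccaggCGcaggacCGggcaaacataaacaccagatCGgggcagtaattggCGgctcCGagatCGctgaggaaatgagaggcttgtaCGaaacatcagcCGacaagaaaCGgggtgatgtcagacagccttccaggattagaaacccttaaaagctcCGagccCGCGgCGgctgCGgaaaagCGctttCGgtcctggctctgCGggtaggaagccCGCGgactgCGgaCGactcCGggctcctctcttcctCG

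The last group shows matches to short motifs in capitals. The peak closest to Ranbp6 (chr19:29933060-29933359) holds 2 matches to the site of the nuclear factor I family (TTGGCA), and the peaks closest to Ets2 (chr16:95896466-95896765) and Trps1 (chr15:50701096-50701395) hold 2 and 1 matches to the AP-1 site (TGANTCA).
Ranbp6, NFI: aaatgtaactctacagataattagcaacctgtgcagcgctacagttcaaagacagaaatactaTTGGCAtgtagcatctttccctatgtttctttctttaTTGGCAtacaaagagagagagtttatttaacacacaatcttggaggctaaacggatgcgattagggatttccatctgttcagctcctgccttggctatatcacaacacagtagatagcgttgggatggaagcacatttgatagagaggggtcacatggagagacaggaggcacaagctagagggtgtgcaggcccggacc
Ets2, AP-1: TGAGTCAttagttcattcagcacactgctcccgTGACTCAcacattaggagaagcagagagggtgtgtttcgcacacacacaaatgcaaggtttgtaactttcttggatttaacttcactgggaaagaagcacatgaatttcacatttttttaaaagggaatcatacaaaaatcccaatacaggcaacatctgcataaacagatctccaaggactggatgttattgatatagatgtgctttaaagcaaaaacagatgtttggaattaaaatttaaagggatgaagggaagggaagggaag
Trps1, AP-1: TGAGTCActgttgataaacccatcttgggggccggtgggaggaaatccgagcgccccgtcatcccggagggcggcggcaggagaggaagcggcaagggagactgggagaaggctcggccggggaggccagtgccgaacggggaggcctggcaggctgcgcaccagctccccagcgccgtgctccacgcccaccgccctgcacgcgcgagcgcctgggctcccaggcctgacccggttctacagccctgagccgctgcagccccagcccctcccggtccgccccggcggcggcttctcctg

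Kept distal peaks were the stronger and wider of the distal peaks, a description only, since the same calls chose them. Their EA-HFSC score ranged from 50.8 to 3100 with a median of 274.8, against a median of 83.4 for lost distal peaks and 1122 for kept peaks near a start. Their width ranged from 562 to 4953 bp with a median of 1663 bp, against 1179 bp and 2880 bp. The share of distal peaks kept rose with the EA-HFSC score, from 9.07% (202 of 2228) under 100 to 29.4% (388 of 1321) from 100 to 200, 64.2% (554 of 863) from 200 to 500 and 95.7% (468 of 489) at 500 and over. In all, 32.9% of distal peaks were kept (31.6 to 34.2%), against 74.2% of narrow peaks near a start and 66.4% of all EA-HFSC peaks. The share was 72.9% once each H3K4me3 list was cut to its 14718 strongest peaks, the length of the LC-HFSC list. This cut left the LC-HFSC list whole and took out EA-HFSC peaks of low score, which were seldom kept. By distance, the share was 35.1% for 10000 to 20000 bp, 32.7% for 20000 to 50000 bp, 33.5% for 50000 to 100000 bp and 26.0% beyond.

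The LC-HFSC score of the kept peaks was lower than their EA-HFSC score for all but 97 of the 1612 (6.02%), with a median of 92.2 and a range from 50 to 1413. As a description across members, which share the 2 lists and their depths, the Spearman correlation between both scores was 0.64. The late catagen peak covered a median of 89.8% of the early anagen peak. Where a non-HFSC peak was present, its score was higher than the EA-HFSC score at 876 of 1425 members in nEA-HFSCs and at 475 of 1319 in nLC-HFSCs. Most of the 97 with a higher late catagen score had EA-HFSC scores under 100. The clearest exception, singled out after its values were seen, lay in Tns1, which encodes the focal adhesion protein tensin 1 (chr1:74129955-74133353), with an EA-HFSC score of 272.7, an LC-HFSC score of 1026 and no peak in either non-HFSC list.

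**Figure D1:**
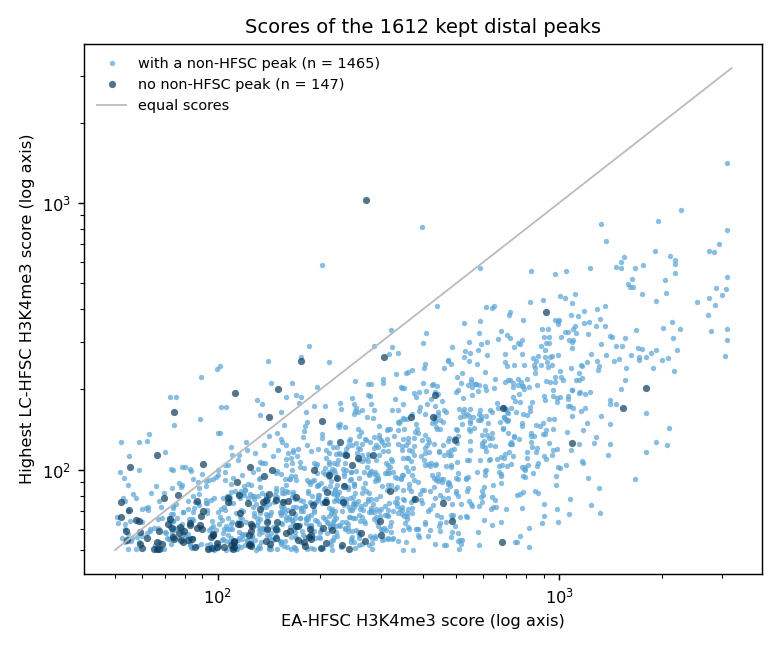
Each point is one kept distal peak, with its EA-HFSC H3K4me3 score on the x axis and the highest score of the LC-HFSC peaks on it on the y axis, both without unit and on log axes. Dark points are the 147 peaks with no non-HFSC peak, light points the other 1465, and all but 97 points lie on or below the grey line of equal scores.

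The peaks of highest EA-HFSC score were shared by all 4 populations in 9 of 10 cases. The score of 3100 was shared by 5 members. One of them, 28393 bp from A130050O07Rik (chr1:139794350-139798359), had scores of 3100 in EA-HFSCs, 305 in LC-HFSCs, 3100 in nEA-HFSCs and 2006 in nLC-HFSCs, and it holds the RefSeq start of Gm4258. The intronic peak in Rgnef (chr13:98783018-98787799), had scores of 3100, 794.3, 3100 and 3100 in the same order. The peak closest to Hfe2, the hemojuvelin gene (chr3:96303094-96307849), had 3100, 1413, 3100 and 3100, and its LC-HFSC score was the highest of all members. It lies 12819 bp from a U1 small nuclear RNA gene. The peak 20381 bp from Fam83b (chr9:76411695-76416289) had 3100, 338.0, 3100 and 2750, and the peak closest to Gm17359 (chr3:79088115-79092425) had 3100, 525.8, 3100 and 2055. The value of 3100 recurs at 590 EA-HFSC, 2701 nEA-HFSC and 874 nLC-HFSC H3K4me3 peaks and is the most frequent score of each of these lists, so that it does not rank these peaks or show them to be equally enriched. The LC-HFSC scores of the 5 ranged from 305 to 1413.

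Others of this top group were closest to Mical3 (chr6:121057483-121061159) with an EA-HFSC score of 3053, to Gm5218 (chr15:81351836-81355228) with 2999.5, to Ranbp6 (chr19:29930860-29935560) with 2939.6 and to St3gal1, a sialyltransferase gene (chr15:67005894-67010750), with 2883. The Ranbp6 peak was the exception to the sharing. Its EA-HFSC score was 2939.6 and its LC-HFSC score 703.7, but nEA-HFSCs reached 65.1 and nLC-HFSCs had no peak there. An EA-HFSC H3K9me3 peak lay on all of the top 10 but the Ranbp6 peak.

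The kept distal peaks were in large part shared with the non-HFSC fraction, which the rule did not use. A nEA-HFSC H3K4me3 peak lay on 1425 of the 1612 (88.4%, 86.7 to 89.9%) and a nLC-HFSC peak on 1319 (81.8%, 79.9 to 83.6%). Among lost distal peaks these shares were 50.3% (48.6 to 52.0%) and 29.6% (28.1 to 31.2%), and among kept peaks near a start 98.4% and 96.9%. Among all EA-HFSC peaks they were 83.6% and 75.0%, close to the shares of the kept distal peaks. Both non-HFSC lists had a peak at 1279 members (79.3%, against 73.7% of all EA-HFSC peaks). Only nEA-HFSCs had one at 146 (9.06%, against 9.85% of all) and only nLC-HFSCs at 40 (2.48%, against 1.30% of all). Neither had one at 147 members, or 9.12% (7.81 to 10.6%), against 46.8% (45.1 to 48.5%) of lost distal peaks and 15.1% of all EA-HFSC peaks.

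**Figure D2:**
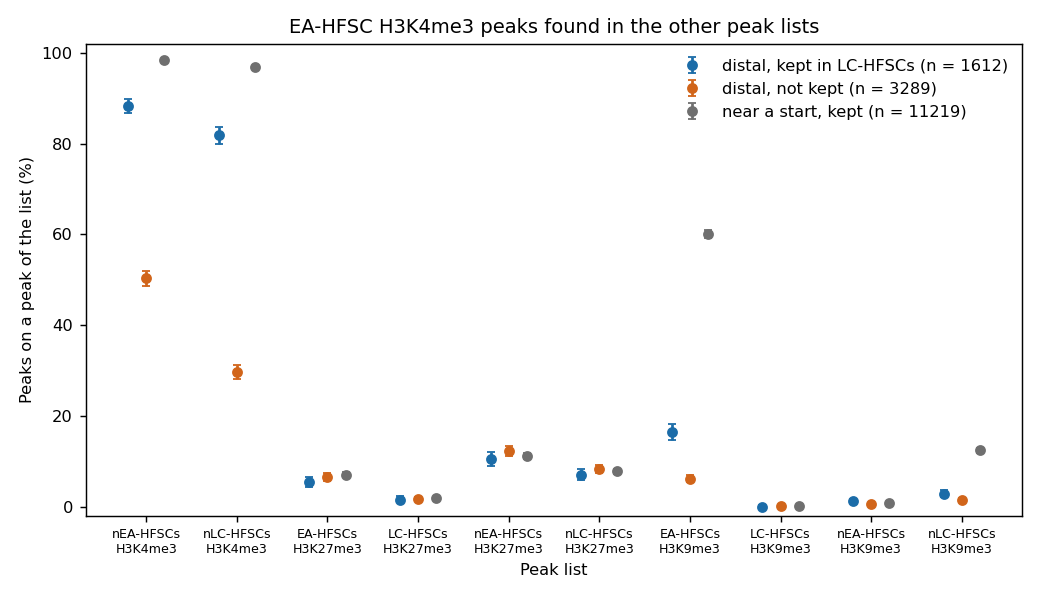
Share of EA-HFSC H3K4me3 peaks, in percent, that lie on a peak of each other list, for 1612 kept distal peaks, 3289 lost distal peaks and 11219 kept peaks near a start, with 95% Wilson intervals as bars. Kept distal peaks lie far above lost ones in both non-HFSC H3K4me3 lists, with 88.4% against 50.3% and 81.8% against 29.6%, and between the other groups in the EA-HFSC H3K9me3 list.

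Because kept peaks had the higher EA-HFSC scores, the comparison was repeated at like EA-HFSC scores. Under a score of 100, 66.8% of 202 kept peaks (60.1 to 73.0%) were on a nEA-HFSC peak against 38.8% of 2026 lost peaks (36.7 to 41.0%). From 100 to 200 the shares were 82.0% against 63.1%, and from 200 to 500 they were 92.2% (89.7 to 94.2%) against 83.2% (78.6 to 86.9%). For nLC-HFSCs the shares were 58.4% against 19.1% under 100, 70.4% against 38.9% from 100 to 200, and 86.3% (83.2 to 88.9%) against 66.7% (61.2 to 71.7%) from 200 to 500. At 500 and over there were 21 lost peaks, and the intervals of both comparisons overlapped.

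**Figure D3:**
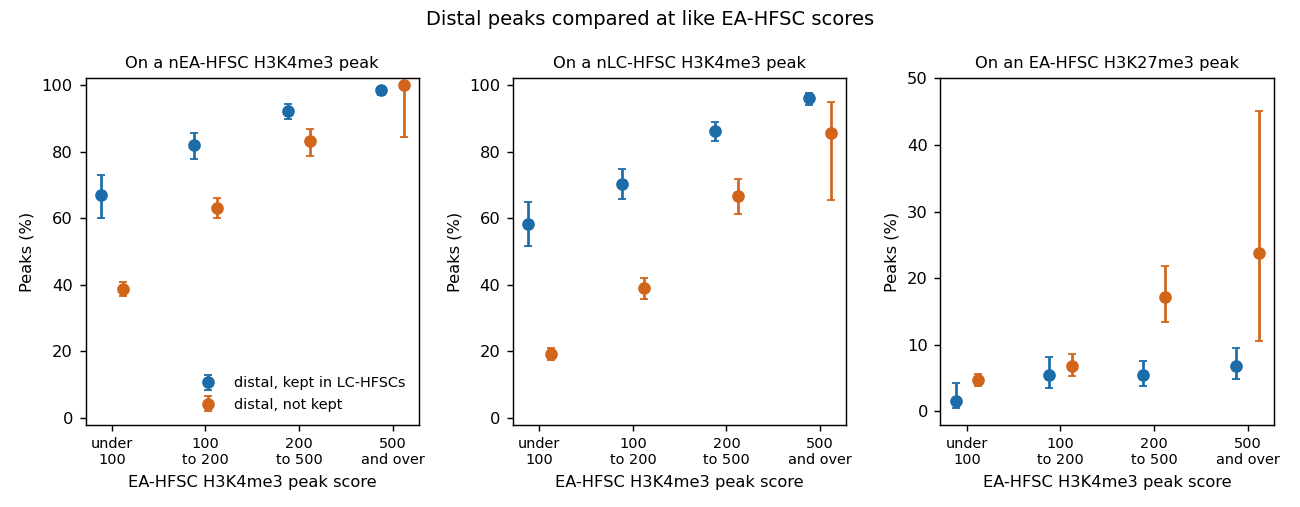
Share of distal peaks, in percent, on a nEA-HFSC H3K4me3, nLC-HFSC H3K4me3 or EA-HFSC H3K27me3 peak, by EA-HFSC H3K4me3 score, for kept (blue) and lost (orange) distal peaks with 95% Wilson intervals as bars. The right panel has a shorter y axis, and there the lost peaks with scores from 200 to 500 reach 17.2% against 5.42% of the kept ones.

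H3K27me3 was rare at kept distal peaks. An EA-HFSC H3K27me3 peak lay on 86 of them (5.33%, 4.34 to 6.54%), against 6.54% (5.74 to 7.43%) of lost distal peaks. It lay on 7.04% (6.58 to 7.53%) of kept peaks near a start, and on 10.2% of all EA-HFSC peaks, which include the wide ones. The share of kept distal peaks was 3.16% with a minimum score of 100 in every list, 3.53% with an overlap of 50% of the peak and 1.395% with equal numbers of top-scoring peaks. In LC-HFSCs the number was 25 (1.55%, against 3.00% of all), in nEA-HFSCs 168 (10.4%, against 15.1%) and in nLC-HFSCs 113 (7.01%, against 11.3%). All 4 populations had H3K27me3 at 22 members (1.36%), against 2.84% of all EA-HFSC peaks. At scores from 200 to 500, 5.42% of kept peaks (3.82 to 7.63%) carried EA-HFSC H3K27me3 against 17.2% of lost peaks (13.4 to 21.8%), and at 500 and over 6.84% (4.88 to 9.49%) against 23.8% (5 of 21, 10.6 to 45.1%), while in both bins under 200 the intervals of kept and lost peaks overlapped. The kept peaks with H3K27me3 included one closest to Odz3, a teneurin gene (chr8:49927065-49930520), with H3K4me3 scores of 2791 in EA-HFSCs, 330.4 in LC-HFSCs, 1217 in nEA-HFSCs and 410.4 in nLC-HFSCs. Another was closest to Gdi2 (chr13:3356722-3361329), with 2185, 544.6, 905.4 and 1290. Both had H3K27me3 in all 4 populations, whereas the peak closest to the helicase gene Dhx15 (chr5:52503693-52508215), with H3K4me3 scores of 2843, 656.5, 2318 and 1787, had it in all but LC-HFSCs. These 3 are the highest-scoring members with EA-HFSC H3K27me3 and were singled out after their values were seen.

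An EA-HFSC H3K9me3 peak lay on 264 members (16.4%, 14.7 to 18.3%), against 6.11% (5.34 to 6.98%) of lost distal peaks and 60.2% of kept peaks near a start. This share followed the H3K4me3 score, with 1.49% under 100, 4.64% from 100 to 200, 9.75% from 200 to 500 and 40.4% at 500 and over. Among lost distal peaks it was 4.54%, 5.57%, 15.5% and 42.9% (9 of 21) in the same order. The higher share of kept peaks was thus seen only without regard to score, and in each bin the intervals of kept and lost peaks overlapped. At scores from 200 to 500 these intervals were 7.55 to 12.5% for kept and 11.9 to 20.0% for lost peaks. The H3K9me3 list of EA-HFSCs holds the most peaks of the 12 lists, and with equal numbers of top-scoring peaks from each list the share of kept peaks was 0.744%. It was 6.18% with a minimum score of 100 in every list and 6.30% with an overlap of 50% of the peak. In LC-HFSCs 0 of the 1612 had an H3K9me3 peak, which allows a share of up to 0.186% by the limit of 3 counts, used here in place of the Wilson interval, and the background was 0.0605% of all EA-HFSC peaks. In nEA-HFSCs 18 members (1.12%, against 0.735% of all) and in nLC-HFSCs 44 (2.73%, against 8.77%) had one. EA-HFSC H3K27me3 and H3K9me3 lay together on 50 members (3.10%), against 3.68% of lost distal peaks and 7.28% of all EA-HFSC peaks.

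By position, 1094 of the kept peaks (67.9%, 65.5 to 70.1%) lay between genes and 488 (30.3%, 28.1 to 32.6%) inside a protein-coding gene, of which 33 were at a coding exon, 8 at an untranslated region and 447 mainly at introns. Lost distal peaks lay inside a protein-coding gene more often, at 40.4% (38.7 to 42.1%). The distance from a kept peak to the nearest start of any kind ranged from 10010 to 581080 bp with a median of 27680.5 bp. On chromosome X there were 22 kept peaks, or 0.132 per Mb, against 0.469 to 0.939 per Mb on the 19 autosomes, and 38.6% of the 57 distal peaks of X were kept (27.1 to 51.6%). Fgf20, a growth factor gene, and Acsl1, an acyl-CoA synthetase gene, had the members closest to the distance limit, both 10010 bp away, and the peaks just outside it were closest to Scarf2 (10000 bp) and Trim27 (9996 bp). The widest members were closest to Ctbp2 (4953 bp) and Tcfap2b (4947 bp), and the kept distal peaks just over the width limit were closest to Dcaf4 (5101 bp) and Gm6158 (5297 bp). The lowest LC-HFSC scores of members were 50 near Zc3h12a and 50.01 near Cdk6. The lost distal peaks of highest EA-HFSC score were closest to Qk (1549) and Shank2 (1377).

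Some kept peaks held a transcript start that RefSeq lists and the annotation does not. The 100 bases around a RefSeq start were found exactly inside 199 members (12.3%, 10.8 to 14.0%), against 4.35% (3.70 to 5.10%) of lost distal peaks and 72.4% of kept peaks near a start. Of distal peaks that held such a start, 58.2% (52.9 to 63.3%) were kept, against 31.0% (29.7 to 32.4%) of those that did not. These shares were not compared at like EA-HFSC scores or widths. Fam83b, Fat3 and 6430573P05Rik, whose sequences are shown above, were of this kind. The other 1413 members held no such start, and of them 87.7% were on a nEA-HFSC and 80.6% on a nLC-HFSC peak.

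CpG content set the kept distal peaks between lost distal peaks and promoters. In 500 bp at the peak middle, the ratio of observed to expected CpGs had a median of 0.447 in kept distal peaks, 0.355 in lost distal peaks and 0.665 in kept peaks near a start, and 0.155 over 511660 tiles of the genome. Windows with a ratio over 0.6 and over 50% G and C, called CpG-rich, made up 288 of the members (17.9%, 16.1 to 19.8%), 7.02% of the lost distal peaks (6.20 to 7.95%), 55.1% of the kept peaks near a start and 0.711% of tiles. CpG-rich distal peaks were kept in 55.5% of cases and CpG-poor ones in 30.2%, but at like scores the intervals overlapped, with 58.3% (50.2 to 66.1%) against 65.4% (61.8 to 68.8%) at scores from 200 to 500 and 96.6% against 95.2% at 500 and over.

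**Figure D4:**
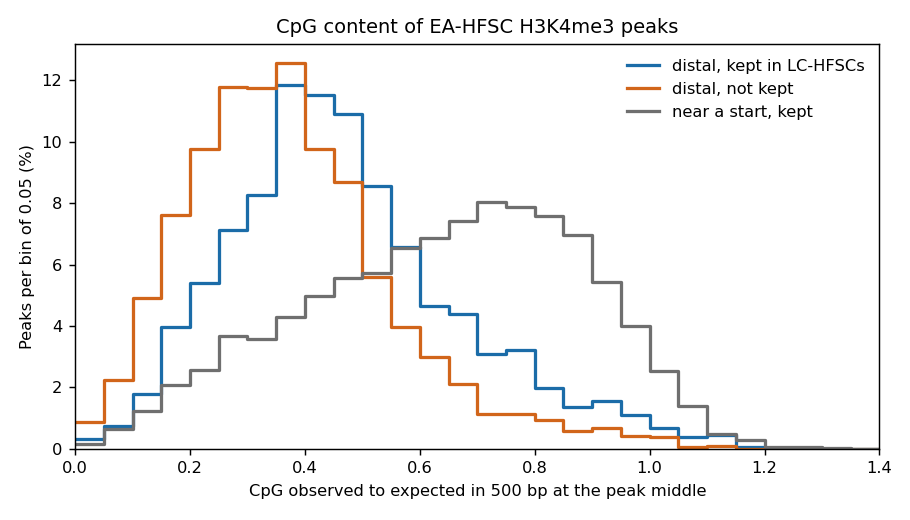
Ratio of observed to expected CpGs in 500 bp at the peak middle (x axis, no unit) against the share of peaks in each bin of 0.05 (y axis, percent), for kept distal peaks (blue), lost distal peaks (orange) and kept peaks near a start (grey). The medians are 0.447, 0.355 and 0.665.

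CpG-rich kept peaks were almost all shared with non-HFSCs, at 98.3% for nEA-HFSCs and 91.7% for nLC-HFSCs, and 5 of the 288 had no non-HFSC peak. Among CpG-rich lost peaks these shares were 70.1% (63.9 to 75.7%) and 45.5% (39.2 to 51.9%). EA-HFSC H3K27me3 lay on 46 of the 288 CpG-rich kept peaks (15.97%, 12.2 to 20.6%) and on 42.4% of CpG-rich lost peaks (36.2 to 48.9%), so that CpG-rich lost peaks more often carried both marks in early anagen. CpG-poor kept peaks had H3K27me3 in 3.02% of cases and CpG-poor lost peaks in 3.83%, with overlapping intervals. In the CpG-poor class, 86.3% of kept peaks (84.3 to 88.0%) and 48.8% of lost peaks (47.0 to 50.6%) were on a nEA-HFSC peak.

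The 147 kept peaks without a non-HFSC peak were weaker and narrower than the other 1465, with a median EA-HFSC score of 125.6 against 299.5, a median LC-HFSC score of 62.5 against 96.0, and a median width of 1392 bp against 1694 bp. Their median distance to a start was 42391 bp against 26898 bp, and 59 of them (40.1%, 32.6 to 48.2%) lay inside a protein-coding gene against 429 of the others (29.3%). The LC-HFSC score was above the EA-HFSC score at 18 (12.2%, 7.89 to 18.5%), against 5.39% (4.35 to 6.67%) of the others. Every kept peak had to pass the score limit of the LC-HFSC list, which leaves a low EA-HFSC score little room to be the higher one. The 147 had the lower EA-HFSC scores, and the shares were not compared at like scores. A difference beyond that of the EA-HFSC scores was therefore not tested.

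The 5 of highest score among these peaks were closest to Pole4, Ctbp2, Fat3, Hnrnpa3 and Cyp2b13. The intronic peak 13297 bp from the start of Pole4, a subunit gene of DNA polymerase epsilon (chr6:82639639-82644485), had an EA-HFSC score of 1793 and an LC-HFSC score of 202.8. The peak 106551 bp from Ctbp2, a transcriptional corepressor gene (chr7:140420112-140425064), had 1542 and 171.0 in the same order. The peak at the RefSeq start of Fat3, an atypical cadherin gene (chr9:16303644-16307331), had 1089 and 125.7 and was the only CpG-rich one of the 5, with H3K27me3 in all 4 populations. The peak closest to Hnrnpa3 (chr2:75248026-75251316) had 915.7 and 391.4, and that closest to Cyp2b13 (chr7:26790689-26794534) had 686 and 170.1. None of the 5 had a peak in nEA-HFSCs or nLC-HFSCs at the score minimum of 50.

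Transcription factors of bulge stem cells had few kept distal peaks. Of 24 such genes, 12 were closest to a kept peak, with 14 peaks in all (0.868% of members), while 64 lost distal peaks (1.95%) had a gene of this list closest. Of the 78 distal peaks next to these genes, 17.9% were kept (95% interval up to 27.9%), against 32.9% of all distal peaks. Neither this list nor the gene lists below were compared at like EA-HFSC scores, with which the share kept rose. Sox9, a factor that maintains the bulge, had 2 kept peaks. Neither had a peak in non-HFSCs, and that at chr11:112765255-112765980 had an EA-HFSC score of 67.2 and an LC-HFSC score of 59. Nfib, a nuclear factor I gene, had a peak in its own gene body (chr4:81970686-81974520) with a higher score in late catagen than in early anagen, 254.4 against 175.1, and again none in non-HFSCs.

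The other 11 peaks of this list were shared with non-HFSCs. Thus 3 of the 14 had no non-HFSC peak, against 9.12% of all members and 40 of the 64 lost peaks of this list. Gli2, a Hedgehog effector, had a peak 11299 bp away (chr1:120960579-120962411) with scores of 407.0 in EA-HFSCs, 325.8 in LC-HFSCs, 876.0 in nEA-HFSCs and 359.7 in nLC-HFSCs. Lhx2, a LIM homeobox factor of the bulge, had a peak 25109 bp away (chr2:38230800-38235522) with 165.8, 82.3, 120.6 and 60.6. Tcf7l2, a Wnt effector, had a peak 98209 bp away (chr19:55717224-55718959) with 659.2, 109.7, 869.5 and 935.1. Foxi3 had 1 CpG-rich peak (chr6:70962190-70963882), with 581.0, 207.7, 560.1 and 414.5. Single peaks closest to Gli3, Foxp1, Barx2, Zbtb16 and Runx1 and 2 closest to Sox4 had EA-HFSC scores from 93.1 to 331.3 and LC-HFSC scores from 50.9 to 93.7.

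Among 29 bulge marker genes, 4 were closest to a kept peak, with 5 peaks, while 19 lost peaks had a gene of this list closest (9.24 to 40.5% kept). Of the 5, 3 had no non-HFSC peak, against 9.12% of all members and 11 of the 19 lost peaks of this list. Among all members, 25.2% had none at EA-HFSC scores under 100 and 14.7% from 100 to 200. The peak closest to Wif1, a secreted Wnt inhibitor (chr10:120597743-120599207), had 136.4 in early anagen and 94.7 in late catagen HFSCs, and 2 peaks in Ltbp1, a latent TGF-beta binding protein gene, had 104.4 and 51.5 (chr17:75706111-75707193) and 96.7 and 57.2 (chr17:75432630-75433901). Cdh3, the P-cadherin gene, had a peak of 119.1 and 86.9 that was also in nEA-HFSCs, and Npnt, a basement membrane protein gene, had 101.7 and 136.7 and was in all 4 populations.

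General epithelial transcription factors were kept at the share of all distal peaks. Of 31 genes, 15 were closest to 24 kept peaks, while 48 lost peaks had a gene of the list closest, so that 33.3% of 72 were kept (23.5 to 44.8%), against 32.9% of all distal peaks. Of the 24 kept peaks, 1 had no non-HFSC peak, that closest to Gata3, against 9.12% of all members and 18 of the 48 lost peaks. Tcfap2b, an AP-2 factor gene, had a peak of 1175 in EA-HFSCs, 140.3 in LC-HFSCs, 939.6 in nEA-HFSCs and 907.4 in nLC-HFSCs (chr1:19229908-19232772). The peak of Klf4, a factor of the epidermal barrier (chr4:55663407-55665454), had 695.3, 168.2, 640.2 and 682.3, and the peak of Grhl2, a grainyhead factor of epithelial cells (chr15:37064538-37066709), had 634.6, 131.0, 1126 and 690.2. An intronic peak of Trps1 (chr15:50700544-50701987) had 696.1, 213.9, 390.9 and 152.6. Bach2 had 4 kept peaks, with LC-HFSC scores up to 92.2. Tcfap2a, Klf5, Ets2 and Trp63, the master factor of basal keratinocytes, had 2 kept peaks each, with EA-HFSC scores from 53.6 near Trp63 to 313.2 near Tcfap2a and non-HFSC peaks at all 8.

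The remaining lists were described by counts, beside the 32.9% of all distal peaks that were kept. AP-1 genes were closest to 5 kept and 3 lost peaks (30.6 to 86.3% kept), with an EA-HFSC score of 2177 and an LC-HFSC score of 234.6 at the stronger peak of Fos (chr12:86825632-86829179). Genes of basal adhesion and keratins were closest to 5 kept and 18 lost peaks (9.66 to 41.9% kept), 3 of the kept ones inside Dst, which encodes a hemidesmosome linker. Genes of BMP, TGF-beta and Smad signalling were closest to 12 kept and 32 lost peaks (27.3%, 16.3 to 41.8% kept), and Wnt pathway genes to 10 kept and 47 lost peaks, of which 17.5% were kept (9.82 to 29.4%). Of these 4 intervals, only that of the Wnt pathway does not hold 32.9%. The Wnt list shares its Tcf7l2 peak with the bulge factor list and its Wif1 peak with the bulge marker list. Markers of dermal, melanocyte, leukocyte and endothelial cells were closest to 7 kept and 6 lost peaks (29.1 to 76.8% kept). The 7 were 4 near Dct and 2 near Mitf, both genes of melanocytes, and 1 near Col1a2. The stronger Mitf peak (chr6:97776619-97781198) had scores of 1954 in EA-HFSCs, 856.3 in LC-HFSCs, 243.9 in nEA-HFSCs and 223.6 in nLC-HFSCs. The part of melanocytes in these peaks was not tested.

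The members were scattered. With a gap of 20000 bp, they fell into 1489 groups, of which 1383 held a single peak and 13 held 3 or more, with 4 as the largest number. In all, 1313 protein-coding genes were closest to a member, and 12 of them to 4 or more, named here after their values were seen. Arid1b, a subunit gene of the BAF chromatin remodelling complex, and Hnrnpa3, a gene of an RNA-binding protein, had 7 kept peaks each and 1 lost peak each, and Chd7, a chromatin remodeller gene, had 6 and 1. The 7 peaks of Arid1b had EA-HFSC scores from 157.7 to 1095 and LC-HFSC scores from 77.8 to 337.7, and all were on peaks of both non-HFSC lists. Of the 7 peaks closest to Hnrnpa3, 2 had no non-HFSC peak. Among all members, 79.3% were on peaks of both non-HFSC lists and 9.12% on neither.

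Short motifs were counted on both strands in 500 bp at the peak middle, and the shares are descriptions, since a match is not a bound site. The AP-1 site was in 16.3% of kept peaks (14.5 to 18.1%), 17.7% of lost distal peaks and 14.2% of tiles. The CCACCC site of Klf factors was in 46.8% (44.3 to 49.2%), 40.3% (38.7 to 42.0%) and 24.4%, and the GGGGCGG site of Sp1 in 18.6% (16.8 to 20.6%), 12.3% (11.2 to 13.4%) and 1.99%. The TTGGCA site of nuclear factor I, a family with members known in the bulge, was in 28.8% of kept peaks (26.6 to 31.0%), 34.6% of lost peaks (33.0 to 36.2%) and 22.9% of tiles. The TAATTA site of LIM homeobox factors such as Lhx2 was in 11.2% (9.78 to 12.9%), 15.6% (14.4 to 16.9%) and 16.9%.

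Within CpG-poor windows the kept peaks were split by their presence in non-HFSCs. This class rests on the middle 500 bp alone, where 17.9% of members were CpG-rich, against 32.6% in any window of the peak. The groups were not compared at like EA-HFSC scores. The nuclear factor I site was in 42.3% of the 142 without a non-HFSC peak (34.4 to 50.5%), 29.6% of the 1182 with one (27.1 to 32.3%) and 35.9% of the 3058 lost peaks. Lost CpG-poor peaks without a non-HFSC peak had it in 38.1% (35.7 to 40.6%) and those with one in 33.8% (31.5 to 36.2%). The CCACCC site went the other way, with 35.2% (27.8 to 43.4%) of kept peaks without and 46.4% (43.5 to 49.2%) with a non-HFSC peak, and lost CpG-poor peaks showed the same split, with 35.97% (33.6 to 38.4%) without and 42.7% (40.3 to 45.1%) with one. The shares of the AP-1 site were 18.3% and 17.6%, and those of the TEAD site (GGAATG) 28.9% and 28.0%. The letters of CTCF and Sp1 can overlap. In kept distal peaks against tiles, the CTCF site (AGGGGGC) had 11.7% against 3.81%, the ETS site (CCGGAAG) 6.89% against 1.402%, the NRF1 site (GCGCANGCG) 3.85% against 0.229% and the grainyhead site (AACCGGTT) 0.434% against 0.0913%. The sites of GATA factors (AGATAA), with 18.3% against 30.0%, RUNX (TGTGGTT), with 8.50% against 11.3%, SOX (ACAATGG), with 5.65% against 8.53%, and p63 (ACATGTC), with 3.47% against 5.34%, were less frequent in the peaks than in tiles. Lost distal peaks differed from tiles in the same direction at all of these sites. They had CTCF in 9.70%, ETS in 5.05%, NRF1 in 2.13% and grainyhead in 0.730%. Their shares of GATA, RUNX, SOX and p63 sites were 21.5%, 9.43%, 6.60% and 4.29%. These comparisons with tiles were not matched for CpG content.

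**Figure D5:**
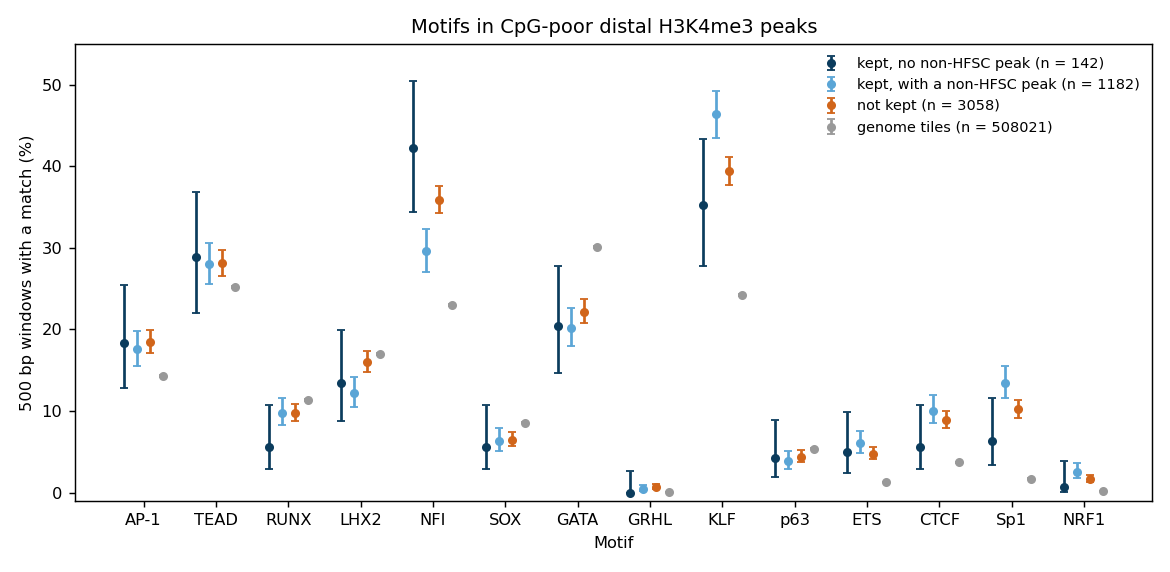
Share of CpG-poor 500 bp windows, in percent, with a match to each of 14 motifs, for 142 kept distal peaks without and 1182 with a non-HFSC H3K4me3 peak, 3058 lost distal peaks and 508021 genome tiles, with 95% Wilson intervals as bars. Nuclear factor I has the highest share in the kept peaks without a non-HFSC peak, with 42.3% against 29.6%, and KLF the highest in those with one.

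Distal peaks were also read from the other lists, as a description only, since the rule used the EA-HFSC and LC-HFSC calls. The lists differ in length, and these shares were not computed with equal numbers of peaks. Of the 1778 distal peaks under 5000 bp in the LC-HFSC list, 91.6% (90.2 to 92.8%) overlapped an EA-HFSC peak, against 51.2% of 6230 in nEA-HFSCs and 68.8% of 3451 in nLC-HFSCs.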

How the data were processed

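Values were ChIP-seq peak lists in mm9 coordinates, without replicates. Per the labels and the study's methods, the authors trimmed reads with Trimmomatic 0.22, aligned them to mm9 with Bowtie2, merged the experiments of a population and called peaks with MACS 1.4 against IgG, with a p-value limit of 1e-05 for H3K4me3 and of 0.0001 for the other marks. The deposited peak score is minus 10 times the log10 of that p-value, with lowest values of 50 and 40. The lists give no read depth, and per the study's methods the LC-HFSC lists rest on more reads than those of EA-HFSCs. The members and gene lists were chosen with earlier results of these data known.

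Overlaps of 1 bp were found in Python 3.11.15 (numpy 2.4.6, scipy 1.17.1) and tested on simulated data against bedtools 2.31.1. Starts came from GENCODE M1 on the mm9 genome. Promoter sequences of RefSeq (GRCm38.p6), 32841 in number, were matched to mm9 by 100 exact bases, and no coordinates were converted. Tiles of 500 bp were taken every 5000 bp. Of EA-HFSC H3K4me3 peaks, 27 lay on unplaced sequence and 1443 of the rest were at least 5000 bp wide, and both were left out. Symbols of 4 listed genes were matched by older names. The 4 IgG samples were not analysed here. The values or sequences of a few members are not reported here.

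The regions named were the 10 members of highest EA-HFSC score, the 5 highest without a non-HFSC peak, the 5 highest with EA-HFSC H3K27me3 or H3K9me3, the 2 on either side of each limit, and those closest to genes of the bulge factor, bulge marker and epithelial factor lists. Other named regions were chosen after their values were seen. A region is named by the protein-coding gene with the closest start, which says nothing of its target. Shares have 95% Wilson intervals.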

Additional observations from a re-analysis of the deposited data

How the results depend on the processing

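Of 82 values computed under 10 alternatives, 50 stayed within the interval or the factor of 1.5 of the value reported and 32 did not. With a minimum score of 100 throughout, 696 peaks (26.0%) were kept, 93.7% of them on nEA-HFSC and 89.2% on nLC-HFSC peaks, 5.60% on neither, 3.16% on H3K27me3, 6.18% on H3K9me3 and 24.9% inside genes, with a median CpG ratio of 0.472. With an overlap of 50% of the peak, the shares on nEA-HFSC, nLC-HFSC, neither, H3K27me3 and H3K9me3 peaks were 85.5%, 75.4%, 11.9%, 3.53% and 6.30%. With a distance over 20000 bp, 1046 were kept. With starts of protein-coding genes only, 34.9% were kept, 20.1% had H3K9me3, 26.98% lay inside genes and the CpG ratio was 0.459. With the same number of top peaks from each list of a mark, the share kept was 72.9%, and 76.8% were on nEA-HFSC and 77.8% on nLC-HFSC peaks, 16.5% on neither, 1.395% on H3K27me3, 0.744% on H3K9me3 and 27.6% inside genes, with AP-1 in 14.2% and a CpG ratio of 0.478. Without peaks that hold a RefSeq start, 31.0% were kept and 13.8% had H3K9me3. AP-1 was in 27.2% of 1000 bp windows, and any window of the peak was CpG-rich in 32.6%. The settings on RefSeq starts and on any window of the peak were chosen after seeing the data, and the cause of these shifts was not tested. Kept peaks had higher shares than lost ones on both non-HFSC lists under each setting run, and the smallest differences were 93.7% against 58.2% for nEA-HFSCs, with the minimum score of 100, and 77.8% against 38.6% for nLC-HFSCs, with equal numbers.

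No paired analysis was possible because each population and mark has 1 pooled list, and for the same reason no replicate was left out. A region whose late catagen signal did not reach the score limit is counted as lost.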
